A study of Mus musculus with 4 samples.

Results

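The genes of the mitochondrial ribosomal proteins were examined in RNA sequencing of white fat from the inguinal depot of the mouse, which lies under the skin. Members were all genes of the deposited table whose mouse symbol begins with Mrpl or Mrps followed by a number, and 77 of 13677 measured genes met this rule. Of these, 48 have a large-subunit symbol (Mrpl) and 29 a small-subunit symbol (Mrps). A total of 76 are protein-coding and 1, Mrpl48-ps, is a pseudogene. The study has 2 libraries labelled FLCNKO, from animals whose Flcn gene was knocked out in adipose tissue, and 2 libraries from wildtype (WT) animals. Flcn encodes folliculin, a tumour suppressor that acts in the mTOR pathway, and the series asks how it relates to browning of white fat. The sources used here give neither the driver of the deletion nor the strain and age of the animals, and they name no agent; no label ties a library to 1 animal. P-values therefore measure only the spread between these libraries, which may be technical.

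The mitochondrial ribosome translates the few messages of the mitochondrial genome, all of which encode subunits of the respiratory chain and ATP synthase. Its ribosomal RNAs come from the mitochondrial genome, whereas all its proteins are encoded in the nucleus, made in the cytosol and imported. Some of these proteins descend from those of bacterial ribosomes and others are found in mitochondria alone. In fat, brown and beige adipocytes are known for a far higher mitochondrial content than white adipocytes.

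All values below are the authors' deposited log2 expression values, which share nearly the same distribution in the 4 libraries, with a median of 10.76 in each. The depth behind them is unknown, and these values would hide any shift common to most genes. Flcn had 12.35 and 12.12 in the FLCNKO libraries, against 12.36 and 12.21 in the WT libraries. The groups overlapped at the targeted gene (log2 fold change -0.05 ± 0.13, SE; limma adjusted p = 0.852), and because the deleted part is not given and fat holds other cells, this value does not check the labels. The change was 0.02 without WT replicate 1 and 0.06 without FLCNKO replicate 2. White adipocyte markers were high, as in fat, with medians over 10 genes of 17.24 and 17.66 in the FLCNKO libraries and 17.46 and 17.49 in the WT libraries. Their level does not check the depot or tell white from brown fat. Of the 10 markers 0 passed the test. Cfd, Adipoq and Retn had both FLCNKO libraries below both WT libraries, with log2 fold changes of -1.13, -0.46 and -0.44. These 3 of 10 were near the 25.4% of all genes with both FLCNKO libraries below both WT libraries. In 0 of the 10 both lay above, against 29.2% of all genes, and 2 of the 10 had a positive change. Fold changes are given as FLCNKO minus WT on the log2 scale, from a limma fit over all 13677 genes.

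The mitochondrial ribosomal protein genes were shifted upward by a small amount in the FLCNKO libraries, and none passed the test singly. In 67 of the 77 members both FLCNKO libraries lay above both WT libraries, and in 0 both lay below, against 29.2% and 25.4% of all measured genes. At an adjusted p under 0.05, limma called 0 members higher and 0 lower, where 0.98% of all genes were called higher and 0.614% lower. At an unadjusted p under 0.05 it gave 28 members higher and 0 lower, against 12.1% and 10.3% of all genes. The lowest adjusted p among members was 0.059 and 9 lay under 0.1 (limma). The median log2 fold change of the members was 0.35, with an interquartile range from 0.24 to 0.49, beside a median of 0.0046 over all genes. A total of 74 members had a value above 0, and 19 exceeded 0.5. The count at an unadjusted p fell below 28 or rose above it, depending on the library left out. The median was 0.21 without FLCNKO replicate 1 and 0.49 without FLCNKO replicate 2. Members with a value above 0 numbered 77 without WT replicate 1 and 72 without WT replicate 2. They numbered 72 without FLCNKO replicate 1 and 71 without FLCNKO replicate 2. In bulk tissue, a change in the number of cells of a type and a change in RNA per cell cannot be told apart.

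**Figure D1:**
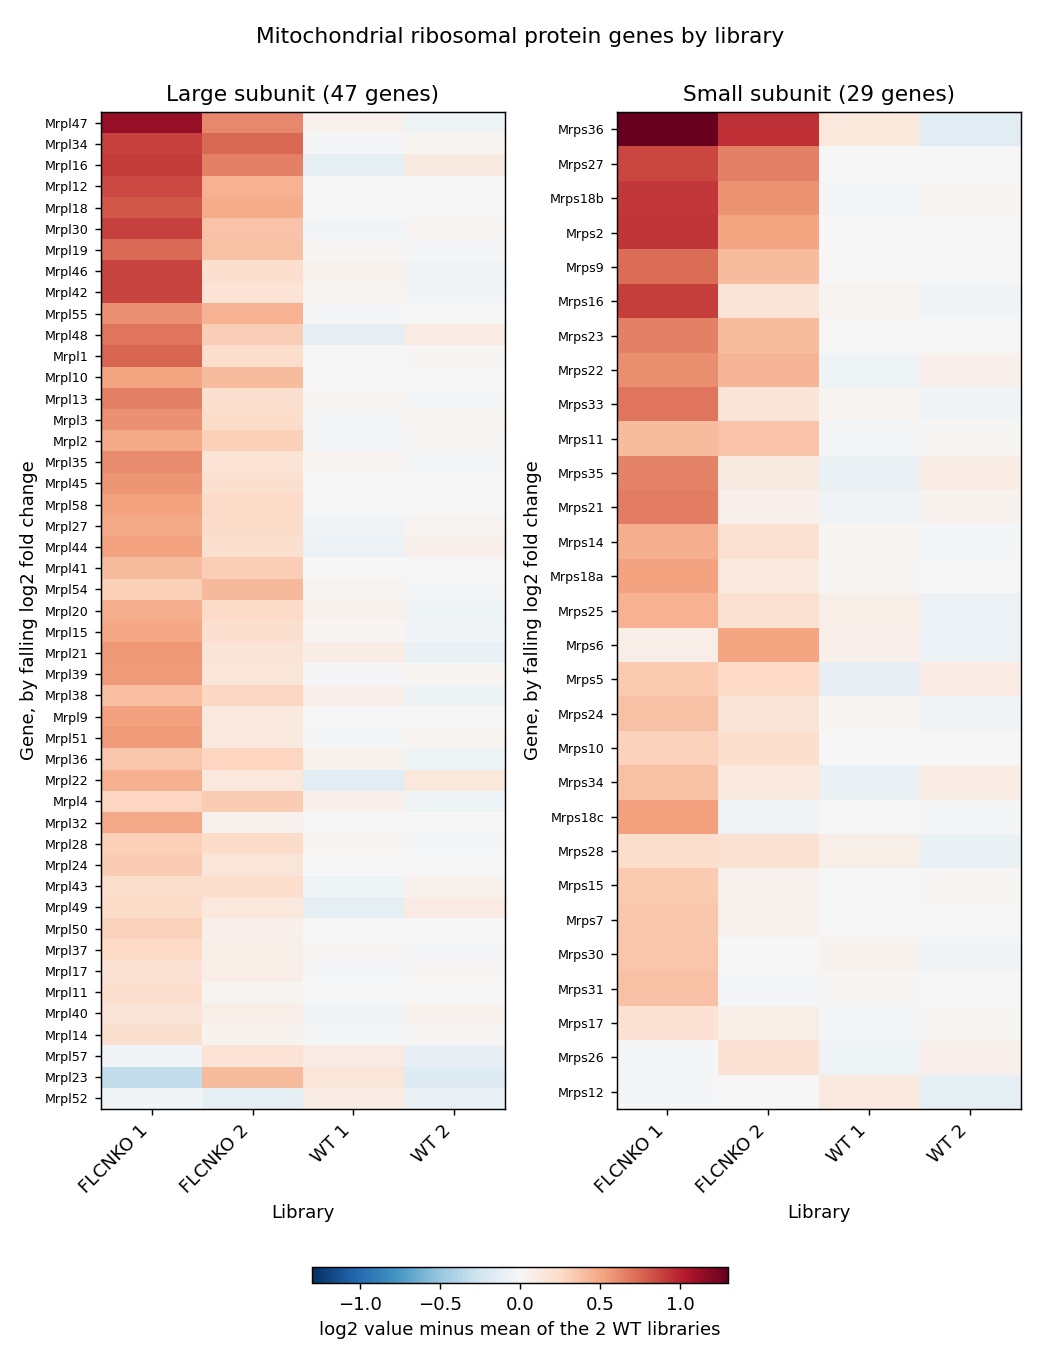
Each row is a protein-coding member (47 large-subunit and 29 small-subunit genes) and each column a library. Colour gives the log2 value minus the mean of the 2 WT libraries. The FLCNKO replicate 1 column is the reddest in most rows, FLCNKO replicate 2 is paler, and the WT columns stay near 0.

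Among the large-subunit genes, Mrpl34 had the largest change relative to its error. Mrpl34 encodes the homologue of bacterial protein L34, and its values were 10.90 and 10.76 in the FLCNKO libraries, against 9.98 and 10.05 in the WT libraries. Both FLCNKO libraries were thus well above both WT libraries (0.82 ± 0.13, SE; limma adjusted p = 0.059). Mrpl16, homologue of bacterial L16, had 11.97 and 11.72 in the FLCNKO libraries and 10.94 and 11.18 in the WT libraries. Its groups did not overlap either (0.79 ± 0.15, limma adjusted p = 0.0714). Mrpl47, whose protein is the counterpart of bacterial L29 near the exit of the peptide tunnel, had 11.30 and 10.79 in the FLCNKO libraries and 10.23 and 10.11 in the WT libraries. Its log2 fold change, 0.88 ± 0.20 (limma adjusted p = 0.094), was the highest of any large-subunit gene. Mrpl18 had 12.46 and 12.13 in the FLCNKO libraries against 11.65 and 11.66 in the WT libraries (0.65 ± 0.15, limma adjusted p = 0.091).

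The stalk of the large subunit recruits translation factors to the ribosome. Mrpl10, which anchors the stalk, had 12.86 and 12.76 in the FLCNKO libraries and 12.35 in both WT libraries, a narrow spread in each group (0.46 ± 0.10, SE; limma adjusted p = 0.091). Mrpl12, the stalk protein that is also known to bind the mitochondrial RNA polymerase, had 13.41 and 13.00 in the FLCNKO libraries and 12.55 and 12.56 in the WT libraries (0.65 ± 0.16, limma adjusted p = 0.106). Without a correction for length, Mrpl12 had the highest mean value of the members, 12.88, and Mrpl30 followed it. Mrpl30 had 13.42 and 12.90 in the FLCNKO libraries against 12.49 and 12.57 in the WT libraries. Without FLCNKO replicate 1 the Mrpl30 change was 0.37 in place of 0.63. Divided by exonic length, the mean level of the members had a median of 10.25 on the log2 scale per kilobase, and Mrpl12 ranked second at 12.26, after Mrps21 at 12.33 (a gene chosen after its values were seen).

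Mrpl41 and Mrpl58 show the smaller differences that were typical of the large subunit. Mrpl58 encodes a peptidyl-tRNA hydrolase built into the ribosome that frees stalled chains, and it had 11.41 and 11.14 in the FLCNKO libraries and 10.88 and 10.89 in the WT libraries (0.39 ± 0.14, limma adjusted p = 0.192). Mrpl58 was 0.26 without FLCNKO replicate 1. Mrpl41, a protein found in mitochondrial ribosomes alone, had 11.55 and 11.46 in the FLCNKO libraries and 11.14 in both WT libraries (0.36 ± 0.11, limma adjusted p = 0.153). Of the 36 large-subunit members not described singly, all 36 had a positive log2 fold change, from 0.07 to 0.56 with a median of 0.34, and 34 had groups that did not overlap. The large-subunit genes with the lowest changes relative to error are described singly, so these 36 were left positive partly by that choice. Over all genes, both FLCNKO libraries lay above both WT libraries in 29.2%.

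A few large-subunit genes did not share the shift. Mrpl52 had 10.31 and 10.23 in the FLCNKO libraries, against 10.45 and 10.25 in the WT libraries, so the groups overlapped (-0.08 ± 0.14, SE; limma adjusted p = 0.779). Mrpl23, counterpart of the bacterial tunnel-exit protein L23, had 6.34 and 7.07 in the FLCNKO libraries and 6.82 and 6.49 in the WT libraries. Mrpl23 had the lowest mean value of the protein-coding members. Its change of 0.05 ± 0.47 became -0.12 without WT replicate 2 and -0.31 without FLCNKO replicate 2. Of the Mrpl23 stretches of 31 bases, 14.2% also occur in transcripts of other genes, of which the pseudogene Mrpl23-ps1 held the most. Whether reads lost to that pseudogene lowered the Mrpl23 value was not tested. The pseudogene Mrpl48-ps had 1 and 3.94 in the FLCNKO libraries and 8.36 and 2.37 in the WT libraries. These are low values apart from that of WT replicate 1, and 56.8% of the pseudogene's stretches of 31 bases also occur in transcripts of other genes.

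Among the small-subunit genes, the highest log2 fold change belonged to Mrps36, which despite its symbol is known as a subunit of the 2-oxoglutarate dehydrogenase complex of the citric acid cycle. Mrps36 had 9.76 and 9.42 in the FLCNKO libraries and 8.61 and 8.32 in the WT libraries, with no overlap (1.12 ± 0.22, SE; limma adjusted p = 0.0722). Mrps27, an RNA-binding pentatricopeptide repeat protein, had 11.49 and 11.27 in the FLCNKO libraries and 10.62 and 10.63 in the WT libraries (0.75 ± 0.13, limma adjusted p = 0.064). Mrps2, homologue of bacterial S2, had 12.12 and 11.70 in the FLCNKO libraries and 11.19 in both WT libraries (0.72 ± 0.17, limma adjusted p = 0.0971). Mrps23 had 12.07 and 11.83 in the FLCNKO libraries against 11.42 in both WT libraries (0.53 ± 0.13, limma adjusted p = 0.103). In each of these genes FLCNKO replicate 1 was the highest library.

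The 3 genes with the stem Mrps18 encode homologous proteins that occupy different places in the ribosome, and their values differed. Mrps18b, a small-subunit protein specific to mitochondria, had 10.99 and 10.65 in the FLCNKO libraries and 10.05 and 10.10 in the WT libraries (0.75 ± 0.16, SE; limma adjusted p = 0.0872). Mrps18c, which takes the place of bacterial S18, had 11.73 and 11.15 in the FLCNKO libraries and 11.21 and 11.18 in the WT libraries. Only FLCNKO replicate 1 was above WT for Mrps18c, and its change of 0.24 ± 0.21 (limma adjusted p = 0.557) was -0.05 without that library. Mrps18a, whose protein sits in the large subunit despite its symbol, had 12.11 and 11.72 in the FLCNKO libraries and 11.61 and 11.58 in the WT libraries (0.33 ± 0.16, limma adjusted p = 0.307). The Mrps18a change was 0.13 without FLCNKO replicate 1 and 0.52 without FLCNKO replicate 2. The differences between these 3 genes were not tested.

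Several small-subunit genes had overlapping groups. Mrps12, the counterpart of the bacterial decoding-centre protein S12, had 10.49 and 10.51 in the FLCNKO libraries, between its WT values of 10.64 and 10.38 (-0.003 ± 0.15, SE; limma adjusted p = 0.992). The 95% interval of the Mrps12 change ran from -0.38 to 0.37, which includes the median of the members, and the change was 0.13 without WT replicate 1 and 0.0065 without FLCNKO replicate 1. Mrps26 had 10.92 and 11.13 in the FLCNKO libraries and 10.88 and 11.01 in the WT libraries, a change of 0.08 that was -0.03 without FLCNKO replicate 2. Mrps31 had 11.48 and 11.08 in the FLCNKO libraries and 11.12 and 11.09 in the WT libraries, and its change of 0.18 was -0.03 without FLCNKO replicate 1. Mrps30, another protein of the large subunit under a small-subunit symbol, had 11.84 and 11.48 in the FLCNKO libraries and 11.53 and 11.44 in the WT libraries. The Mrps30 change was 0.18, and -0.0035 without FLCNKO replicate 1. The 18 small-subunit members not described singly all had positive changes, from 0.14 to 0.57 with a median of 0.31, and none of the 18 had overlapping groups. All 5 small-subunit genes with overlap had been named, some of them because their changes relative to error were the lowest. The 18 were thus left positive and apart partly by that choice. Over all genes, both FLCNKO libraries lay above both WT libraries in 29.2%.

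**Figure D2:**
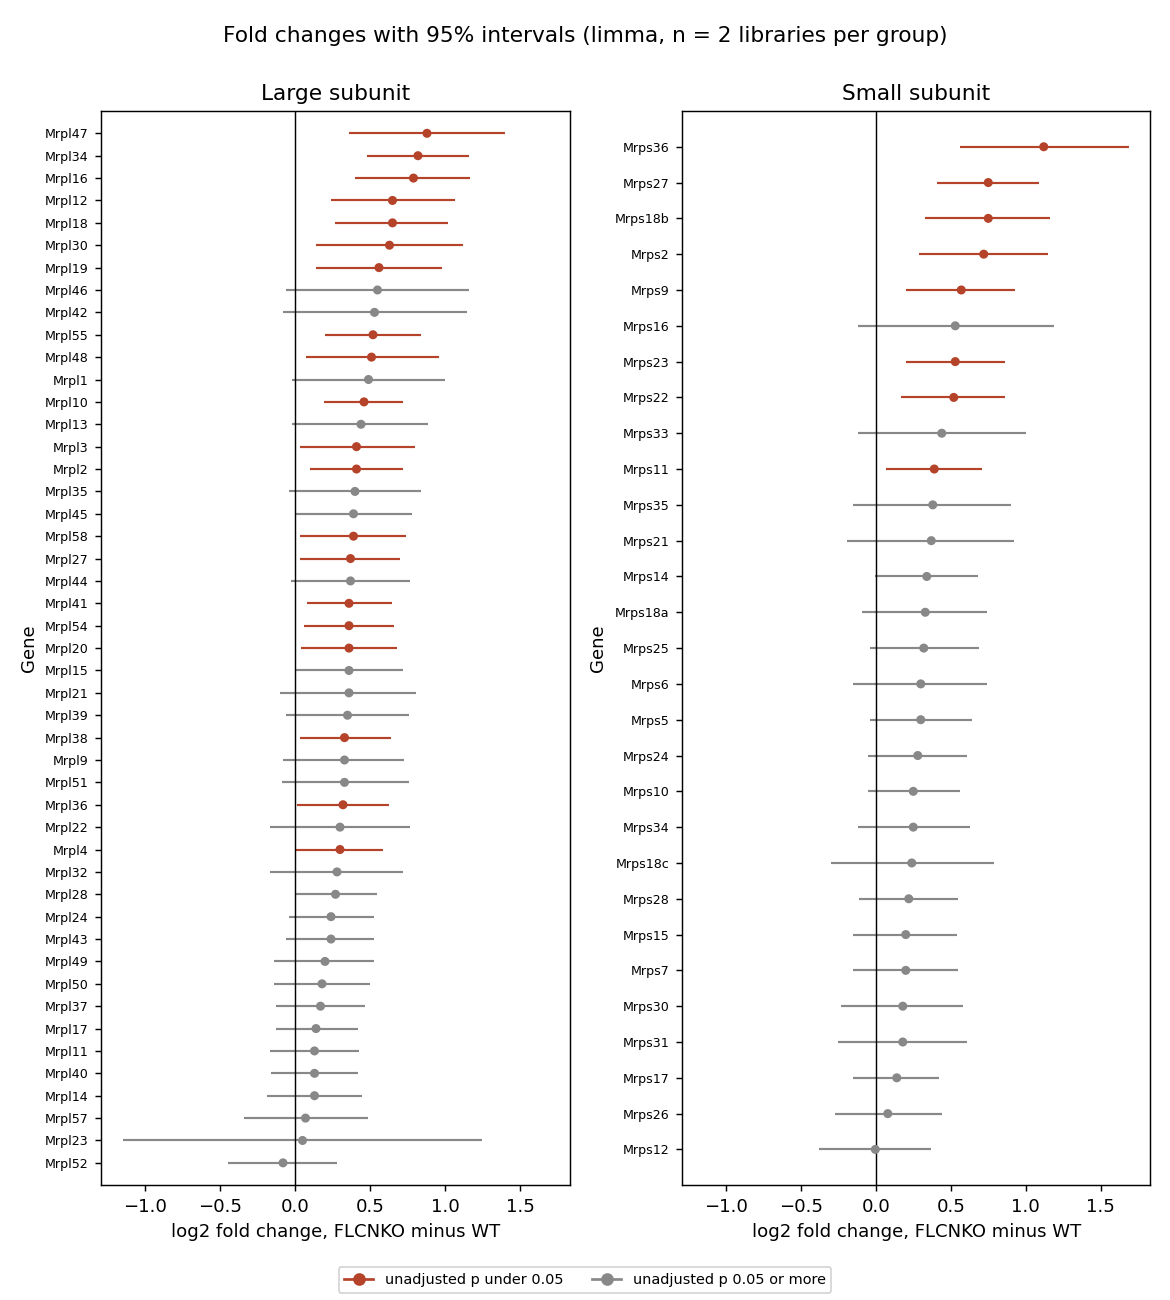
Points give the log2 fold change (FLCNKO minus WT) of each protein-coding member and lines its 95% interval from limma, with 2 libraries per group. Values run from -0.08 to 0.88 in the large subunit and from -0.003 to 1.12 in the small subunit, and nearly all lie right of 0. Red marks an unadjusted p under 0.05.

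The large and small subunits were shifted by similar amounts. The median log2 fold change was 0.36 over the 48 large-subunit members and 0.32 over the 29 small-subunit members, a difference of 0.04. The library medians of the large-subunit genes were 11.90 and 11.71 in the FLCNKO libraries and 11.39 and 11.42 in the WT libraries. Those of the small-subunit genes were 11.70 and 11.39 in the FLCNKO libraries and 11.19 in both WT libraries. The large-subunit median exceeded the small-subunit one by 0.20 and 0.32 in the FLCNKO libraries and by 0.20 and 0.23 in the WT libraries, so the groups were not apart. With Mrps18a and Mrps30 placed in the large subunit, and Mrps36 and the pseudogene in neither, the difference between subunit medians of the log2 fold change was 0.05. The large-subunit median itself was 0.22 without FLCNKO replicate 1 and 0.50 without FLCNKO replicate 2, and the small-subunit median 0.19 without FLCNKO replicate 1.

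The ancestry of the proteins divided the members little. The 45 members with a bacterial or universal counterpart had a median log2 fold change of 0.36, and the 30 proteins specific to mitochondria had 0.34. Within the large subunit these medians were 0.37 over 29 genes and 0.33 over 20 genes. Within the small subunit they were 0.29 over 16 genes and 0.41 over 10 genes, the opposite order. No test was made of these medians, since the members share libraries.

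The 2 FLCNKO libraries differed more from each other over these genes than the 2 WT libraries did. The median absolute difference between replicates was 0.27 in FLCNKO and 0.07 in WT over the members, beside 0.25 in FLCNKO and 0.15 in WT over all genes. FLCNKO replicate 1 was above FLCNKO replicate 2 in 69 of 77 members (89.6%), against 48.6% of all genes. The 8 exceptions included Mrps6, Mrpl54 and Mrpl4, named here after their values were seen. Relative to the WT mean, the median member was 0.49 higher in FLCNKO replicate 1 and 0.21 higher in FLCNKO replicate 2. Markers of brown and beige adipocytes ran the same way, with medians over 10 genes of 13.41 and 12.15 in the FLCNKO libraries and 9.75 and 9.23 in the WT libraries, and 9 of the 10 were higher in FLCNKO replicate 1 than in replicate 2. Skeletal muscle markers, from another tissue rich in mitochondria, had medians over 15 genes of 12.21 and 5.42 in the FLCNKO libraries and 12.89 and 10.51 in the WT libraries, and 14 of the 15 were higher in FLCNKO replicate 1 than in replicate 2. Single muscle markers ranged from 7.20 to 14.32 and from 2.37 to 13.32 in FLCNKO replicates 1 and 2, and from 9.31 to 15.51 and from 5.21 to 12.21 in WT replicates 1 and 2. Myh2 was at 2.37, the lowest value of FLCNKO replicate 2. Of 10 brown and beige markers, 9 had a positive log2 fold change. The test called 4 of the 10 higher, against 0.98% of all genes, calls that were lost without the trend and without any single library. All 9 fibroblast and all 9 macrophage markers had both FLCNKO libraries below both WT libraries, against 25.4% of all genes. The fibroblast medians were 15.68 and 15.49 in the FLCNKO libraries against 17.02 and 16.87 in the WT libraries. The macrophage medians were 13.67 and 13.51 in the FLCNKO libraries against 14.43 and 14.14 in the WT libraries. The median log2 fold change was 0.05 over 7 endothelial, -0.46 over 8 lymphocyte and -0.66 over 4 epithelial markers. The test called 3 fibroblast, 2 macrophage and 1 epithelial marker lower, against 0.614% of all genes. Those calls too were lost without the trend and without any single library. The part of these cell types in the members' values was not tested. In WT, replicate 1 had the higher muscle median and was above replicate 2 in 38 of 77 members.

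Most other genes of mitochondrial translation had positive log2 fold changes, and 1 passed the test. Lrpprc, which stabilises mitochondrial messenger RNAs, rose to 13.26 and 12.99 in the FLCNKO libraries, against 12.15 and 12.18 in the WT libraries (0.96 ± 0.13, SE; limma adjusted p = 0.0478). This call was lost without any single library and without the mean-variance trend (limma adjusted p from 0.0615 to 0.336). Of 15 measured translation factors and message-binding proteins, Lrpprc was the 1 called higher, and 0 were called lower. At an unadjusted p under 0.05, limma gave 8 higher and 0 lower, against 12.1% and 10.3% of all genes. The 15 genes had a median log2 fold change of 0.43, and 14 of them had a positive change. Against 29.2% and 25.4% of all genes, both FLCNKO libraries lay above both WT libraries in 12 and below them in 1. That gene, Mss51, had 6.06 and 6.04 in the FLCNKO libraries and 7.29 and 6.49 in the WT libraries (-0.85 ± 0.50, SE; limma adjusted p = 0.388) and was named after its values were seen. Gfm1, an elongation factor, had 13.33 and 13.07 in the FLCNKO libraries against 12.10 and 12.33 in the WT libraries (0.99 ± 0.15, limma adjusted p = 0.0541). The translational activator gene Taco1 had a change of 1.07 and the ribosome recycling factor gene Gfm2 one of 0.56, with limma adjusted p-values of 0.064 and 0.0724.

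Of 20 mitochondrial aminoacyl-tRNA synthetase and amidotransferase genes, limma called 0 in either direction at an adjusted p under 0.05. At an unadjusted p under 0.05 it gave 11 higher and 0 lower, against 12.1% and 10.3% of all genes. The median of these 20 genes was 0.45, and in 17 both FLCNKO libraries lay above both WT libraries, against 29.2% of all genes. Qrsl1, which completes the glutamine-charged tRNA, had 10.07 and 10.01 in the FLCNKO libraries and 8.96 and 9.01 in the WT libraries (1.06 ± 0.15, SE; limma adjusted p = 0.0509). Nars2, the asparagine enzyme, followed with 0.98 ± 0.15 (limma adjusted p = 0.0556), and Wars2 and Yars2 had 0.67 and 0.64. Among 25 assembly factors of the mitochondrial ribosome, 0 were called (10 higher and 0 lower at an unadjusted p under 0.05) and the median was 0.33. The largest changes by p were those of Fastkd2 (0.73), Mpv17l2 (0.67), Mtg1 (0.52) and Tfb1m (0.86), the last of which methylates the small ribosomal RNA. The 5 mitochondrial ribosomal proteins with other symbols had positive changes, 0.71 for Ptcd3, 0.41 for Dap3, 0.27 for Chchd1, 0.17 for Gadd45gip1 and 0.09 for Aurkaip1, none of which passed the test. Chchd1 was -0.03 without FLCNKO replicate 1.

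**Figure D3:**
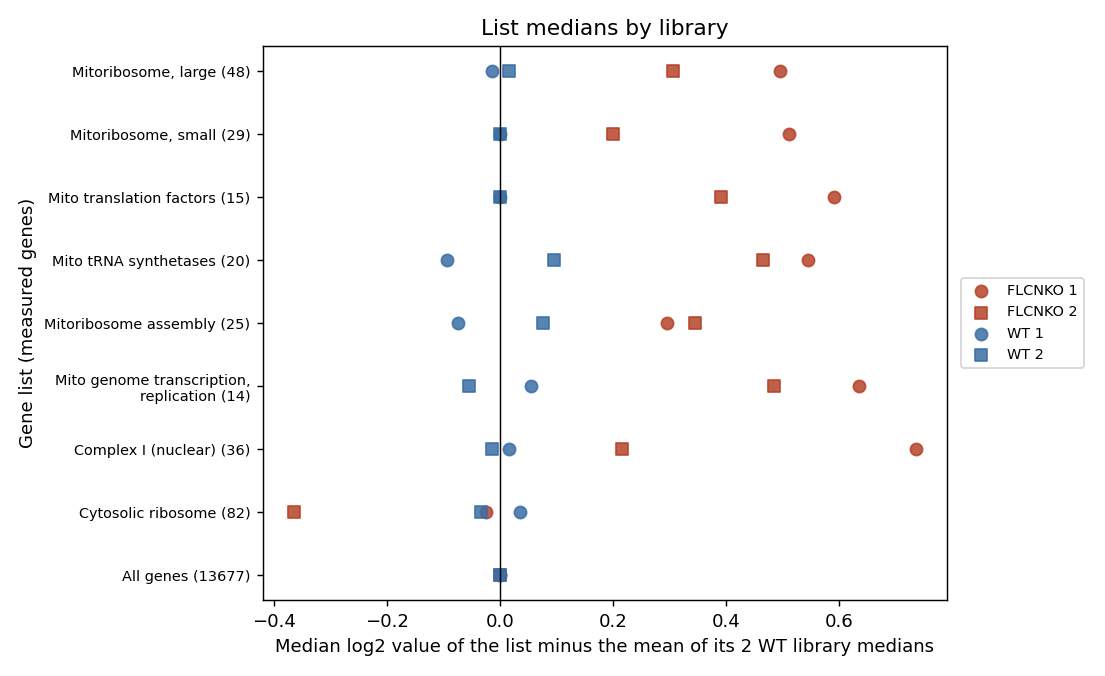
Each point is the median log2 value of a gene list in 1 library minus the mean of that list's 2 WT library medians, with the FLCNKO libraries in red and the WT libraries in blue. Both FLCNKO libraries lie right of both WT libraries for the mitochondrial lists, while for the cytosolic ribosome FLCNKO replicate 2 lies far to the left.

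Of 14 genes that transcribe, process or copy the mitochondrial genome, limma called 0, and their median was 0.31. At an unadjusted p under 0.05 it gave 3 higher and 0 lower, against 12.1% and 10.3% of all genes. In 9 of the 14 both FLCNKO libraries lay above both WT libraries, against 29.2% of all genes. Tefm, the elongation factor of the mitochondrial RNA polymerase, had 0.57 ± 0.14, the helicase gene Twnk 0.50 ± 0.13, Mgme1 0.91 ± 0.35 and Trmt10c 0.29 ± 0.13 (SE). The Mgme1 change was 0.48 without FLCNKO replicate 1. The large ribosomal RNA mt-Rnr2 had 16.83 and 15.91 in the FLCNKO libraries and 15.57 and 15.33 in the WT libraries (0.92 ± 0.32, limma adjusted p = 0.184). The small ribosomal RNA mt-Rnr1 had 16.26 and 15.35 in the FLCNKO libraries and 15.39 and 15.09 in the WT libraries, with overlap (0.56 ± 0.32, limma adjusted p = 0.366). Without FLCNKO replicate 1 the change was 0.46 for mt-Rnr2 and 0.11 for mt-Rnr1. Both ribosomal RNAs were named after their values were seen. All 9 measured mitochondrially encoded genes had positive changes, with a median of 0.65, and in 8 both FLCNKO libraries lay above both WT libraries. Only mt-Nd6 was called higher, with 12.37 and 11.63 in the FLCNKO libraries and 9.67 and 9.85 in the WT libraries (2.24 ± 0.27, limma adjusted p = 0.0419). The mt-Nd6 call was lost without any single library (limma adjusted p from 0.0615 to 0.246) and without the trend (0.14), and it is uncertain because that gene lies opposite other mitochondrial genes and no strand setting is given. The messages mt-Co1, mt-Cytb and mt-Nd1 had changes of 0.78, 0.77 and 0.65 and did not pass, and mt-Co1 sat at the ceiling of 21.66 in both FLCNKO libraries. Other top values recur too, such as 20.88 for mt-Cytb in both FLCNKO libraries and for mt-Co1 in both WT libraries. Likewise mt-Nd2 had 19.43 in both FLCNKO libraries and 19.28 in both WT libraries. With a common distribution such values are set by rank, so the sizes of these changes and the median of 0.65 are uncertain.

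Among 10 regulators known to act on nuclear genes of mitochondrial proteins, 3 were called higher and 0 lower, against 0.98% and 0.614% of all genes. Those called, Esrrg, Ppargc1b and Ppargc1a, had log2 fold changes of 2.73, 1.77 and 1.12. For these 3, limma adjusted p-values were 0.0405, 0.0438 and 0.0476, and ranged up to 0.336 without single libraries, none of them then under 0.05. Without the trend all 3 calls were lost too (limma adjusted p = 0.14). At an unadjusted p under 0.05, limma gave 5 of the 10 higher and 1 lower, against 12.1% and 10.3% of all genes. Both FLCNKO libraries lay above both WT libraries in 5 and below them in 3, against 29.2% and 25.4%. Myc, the 1 lower, was named after its values were seen. It had 9.95 and 9.54 in the FLCNKO libraries against 10.40 and 10.35 in the WT libraries (-0.63 ± 0.18 SE, limma adjusted p = 0.137). Esrra had 11.91 and 11.76 in the FLCNKO libraries and 11.15 and 11.37 in the WT libraries (0.57 ± 0.14, SE; limma adjusted p = 0.0991). Gabpa, Nrf1 and Yy1, factors with known sites in promoters of mitochondrial protein genes, were not picked by the rule for named genes and are given for the motifs that follow. Gabpa had 12.63 and 12.35 in the FLCNKO libraries against 12.11 and 12.07 in the WT libraries (0.40 ± 0.14, limma adjusted p = 0.179). Nrf1 had 10.02 and 10.09 in the FLCNKO libraries against 10.18 and 10.34 in the WT libraries (-0.21 ± 0.14, limma adjusted p = 0.452). Yy1 had 11.91 and 11.82 in the FLCNKO libraries against 12.06 and 12.08 in the WT libraries (-0.20 ± 0.11, limma adjusted p = 0.332).

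The shift of the members was smaller than that of complex I and opposite in sign to that of the cytosolic ribosome. The 36 nuclear complex I genes had a median of 0.69, with 1 called higher (Ndufv1, 1.12 ± 0.13, SE; limma adjusted p = 0.0422) and 0 lower. The call for Ndufv1 was lost without any single library (limma adjusted p from 0.0615 to 0.291) and without the trend (0.14). In 35 of the 36 both FLCNKO libraries lay above both WT libraries, against 29.2% of all genes. In all 36 FLCNKO replicate 1 was above replicate 2. The 82 cytosolic ribosomal protein genes had a median of -0.31, with 0 called. At an unadjusted p under 0.05, limma gave 0 of them higher and 29 lower, against 12.1% and 10.3% of all genes. In 44 of the 82 both FLCNKO libraries lay below both WT libraries and in 4 above, against 25.4% and 29.2% of all genes. Sequence shared with other genes was not examined for the cytosolic list. The median cytosolic gene was 0.16 below the WT mean in FLCNKO replicate 1 and 0.50 below it in FLCNKO replicate 2. FLCNKO replicate 1 was the higher one in 67 of the 82 cytosolic genes too. In WT, replicate 1 was the higher one in 68 of the 82 cytosolic genes but in 38 of 77 members. Both ribosomes thus shared the order of the FLCNKO replicates but not that of the WT replicates. The differences between these gene groups were not tested.

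Because the members were shifted together, their promoters were compared. RefSeq promoter windows on GRCm38.p6, from 250 bases before to 50 bases after each start site, were matched by symbol for 67 of the 77 members (41 large and 26 small). Both strands were searched for the core motifs of NRF1 (GCATGCGC), of GABPA and other ETS factors (CCGGAAG) and of YY1 (AAGATGGCG), for the E-box CACGTG that MiT/TFE and other factors bind, and for the ERR element (TCAAGGTCA), none of which contains another. The ETS core was present in 24 members, or 35.8%, against 19.1% of the 10306 measured protein-coding genes in the table and 9.93% of all 27025 genes in it. The YY1 core was present in 8 members (11.9%, against 3.43% and 1.64%) and the NRF1 core in 7 (10.4%, against 5.77% and 3.05%). The E-box was found in 5 members (7.46%, against 11.4% and 8.09%) and the ERR element in 0 (against 0.33% and 0.466%). The median GC content was 58.0% in the members and 60.5% in the measured protein-coding genes. A match describes letters in the window and is not a shown site.

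**Figure D4:**
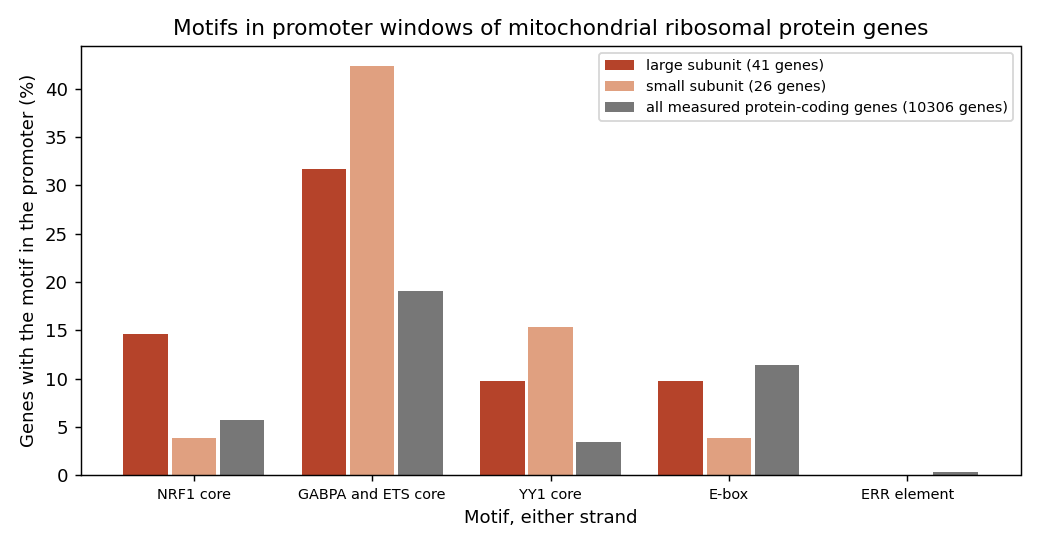
Bars give the percentage of genes with each motif on either strand of the promoter window, for 41 large-subunit genes, 26 small-subunit genes and 10306 measured protein-coding genes. The ETS core is the most frequent motif in both subunits, at 31.7% and 42.3%.

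The log2 fold changes did not sort by motif. Members with the ETS core had a median of 0.37 and the 43 without it 0.33. The medians were 0.36 with and 0.35 without the YY1 core, 0.33 with and 0.36 without the NRF1 core, and 0.32 with and 0.36 without the E-box. The promoters of the members with the 2 largest and the 1 smallest change relative to error in each subunit, among those with a window, are printed below, to show the letters at the extremes of the change. Each runs 5′ to 3′ on the strand of the gene, the start site follows the first 250 bases, and capitals mark motif matches. The windows on GRCm38.p6 are chr8:71464676-71464975, plus strand for Mrpl34, chr19:11770165-11770464, plus strand for Mrpl16, chr14:54426659-54426958, plus strand for Mrpl52, chr13:99344536-99344835, plus strand for Mrps27, chr13:100744610-100744909, minus strand for Mrps36 and chr7:28741772-28742071, minus strand for Mrps12.
Mrpl34: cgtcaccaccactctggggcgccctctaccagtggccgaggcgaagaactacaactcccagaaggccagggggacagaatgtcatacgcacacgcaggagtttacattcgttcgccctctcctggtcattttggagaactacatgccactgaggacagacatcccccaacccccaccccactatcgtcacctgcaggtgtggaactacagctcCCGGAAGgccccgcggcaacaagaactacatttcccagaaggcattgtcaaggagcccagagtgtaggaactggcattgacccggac
Mrpl16: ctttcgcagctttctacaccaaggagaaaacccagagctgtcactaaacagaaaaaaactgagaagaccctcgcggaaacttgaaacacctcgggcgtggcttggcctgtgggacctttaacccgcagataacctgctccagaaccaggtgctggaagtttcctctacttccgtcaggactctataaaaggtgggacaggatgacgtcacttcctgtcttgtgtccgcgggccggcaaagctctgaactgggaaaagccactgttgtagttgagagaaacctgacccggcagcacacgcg
Mrpl52: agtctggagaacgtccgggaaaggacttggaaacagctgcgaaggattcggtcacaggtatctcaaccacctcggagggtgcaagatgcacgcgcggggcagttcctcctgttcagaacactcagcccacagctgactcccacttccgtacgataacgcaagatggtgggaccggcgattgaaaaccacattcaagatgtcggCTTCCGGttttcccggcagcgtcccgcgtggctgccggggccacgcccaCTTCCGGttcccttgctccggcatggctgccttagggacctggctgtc
Mrps27: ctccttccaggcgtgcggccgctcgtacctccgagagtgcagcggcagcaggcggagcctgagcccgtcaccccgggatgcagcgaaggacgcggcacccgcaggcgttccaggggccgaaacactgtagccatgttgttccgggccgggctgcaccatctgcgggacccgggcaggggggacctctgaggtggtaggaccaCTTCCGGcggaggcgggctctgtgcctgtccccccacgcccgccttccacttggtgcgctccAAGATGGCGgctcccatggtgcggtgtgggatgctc
Mrps36: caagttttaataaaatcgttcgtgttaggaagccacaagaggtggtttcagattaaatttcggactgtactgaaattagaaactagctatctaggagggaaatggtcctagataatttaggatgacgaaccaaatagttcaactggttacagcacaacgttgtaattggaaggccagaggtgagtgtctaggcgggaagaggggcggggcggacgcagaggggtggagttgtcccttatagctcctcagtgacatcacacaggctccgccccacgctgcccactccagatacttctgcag
Mrps12: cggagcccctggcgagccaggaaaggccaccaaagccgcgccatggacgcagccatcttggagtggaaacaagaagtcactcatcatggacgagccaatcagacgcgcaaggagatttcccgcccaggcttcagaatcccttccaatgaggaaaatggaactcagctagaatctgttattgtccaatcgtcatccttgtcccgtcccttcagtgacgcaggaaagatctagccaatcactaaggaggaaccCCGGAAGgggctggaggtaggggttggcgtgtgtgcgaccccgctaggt
Mrpl34, with a change of 0.82, and Mrps12, with -0.003, each carry 1 match to the ETS core, and Mrpl52, with -0.08, carries 2. Mrps27 carries 1 ETS match and 1 YY1 match, the second of which lies after the start site. Mrpl16 and Mrps36, both among the members with the largest changes, have no match in these windows.

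Many members share a promoter region with a neighbour transcribed in the other direction. Of the 76 protein-coding members, 18 (23.7%) start within 1000 bases of a divergent protein-coding gene in GENCODE M21, against 9.80% of measured protein-coding genes. Only genes whose start lay upstream of the member's start were counted, so pairs with overlapping starts were left out. Mrpl46 and Mrps11 overlap each other on opposite strands (12.2% and 8% of exonic length) and were not counted. No counted neighbour was itself a member, and 16 were measured. The neighbours had a median log2 fold change of 0.14, from -0.58 to 0.43, and limma called 0 of them. At an unadjusted p under 0.05, limma gave 2 higher and 1 lower, against 12.1% and 10.3% of all genes. In 14 of the 16 pairs the member had the higher log2 fold change. Both FLCNKO libraries lay above both WT libraries in 6 neighbours and below them in 3, against 29.2% and 25.4% of all genes. Pairs are named here as illustrations chosen after their values were seen. Mrps27 starts 81 bases from Ptcd2, which had 11.50 and 11.20 in the FLCNKO libraries and 10.94 and 10.93 in the WT libraries (0.42 ± 0.15, SE; limma adjusted p = 0.183). Mrps18b starts 45 bases from the phosphatase regulator gene Ppp1r10, which had 10.88 and 11.20 in the FLCNKO libraries and 11.30 and 11.52 in the WT libraries (-0.37 ± 0.16, limma adjusted p = 0.269). Mrpl49 starts 59 bases from Fau, which encodes a precursor of a cytosolic ribosomal protein. Fau had 11.10 and 11.04 in the FLCNKO libraries and 11.76 and 11.53 in the WT libraries (-0.58 ± 0.13, limma adjusted p = 0.0934), while Mrpl49 had 12.09 and 11.99 in the FLCNKO libraries and 11.73 and 11.96 in the WT libraries. Mrps12 starts 172 bases from Sars2, the mitochondrial serine tRNA synthetase gene, whose change was 0.33 ± 0.21. Members with a divergent neighbour by this rule had a median of 0.29, and the 58 without one 0.36.

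**Figure D5:**
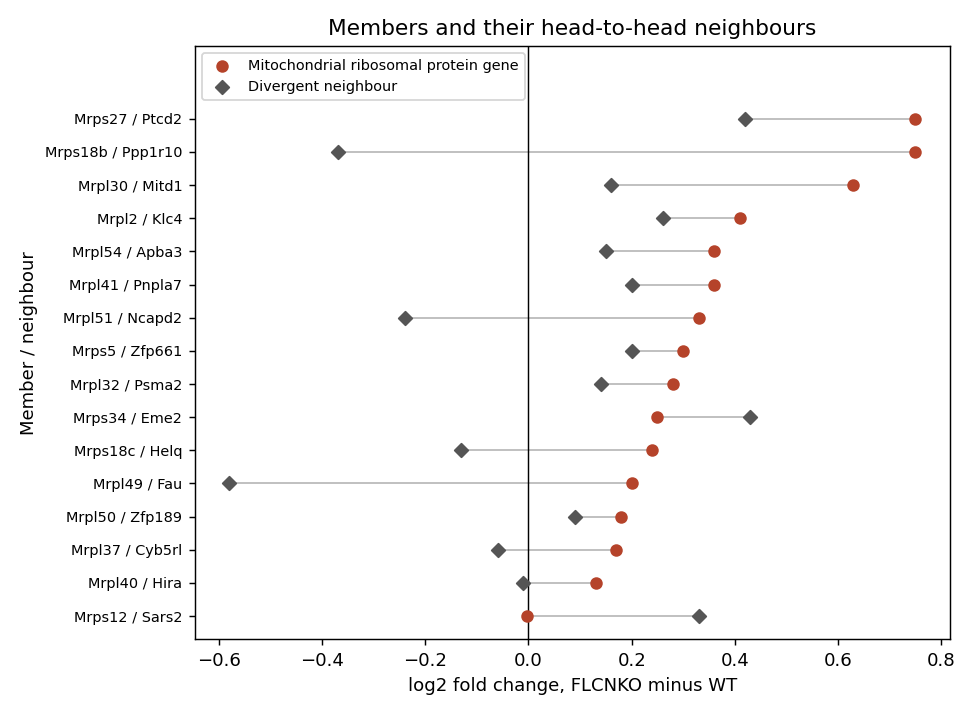
Circles give the log2 fold change (FLCNKO minus WT) of 16 members and diamonds that of the protein-coding gene that starts head to head within 1000 bases. The member lies to the right in 14 pairs, and Fau (-0.58) and Ppp1r10 (-0.37) lie farthest left.

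Some values carry uncertainty from shared sequence. In 29 members more than 10% of the 31-base stretches also occur in transcripts of other genes, and their median log2 fold change was 0.36, against 0.34 in the other 48. Shares were 31.6% for Mrps18b, 34.5% for Mrps18c, 25.8% for Mrpl47, 21.0% for Mrps36, 21.1% for Mrpl41, 18.9% for Mrps27, 17.3% for Mrpl10, 16.3% for Mrpl18 and 15.9% for Mrpl12. In 14 members more than 10% of the exonic length overlaps a gene on the opposite strand, and the strand setting of the counting is not given. These include Mrpl47 (24.2%), which overlaps both Actl6a and the complex I gene Ndufb5. Of other genes, Actl6a held the most of the shared stretches of Mrpl47. Ndufb5 had 14.06 and 13.53 in the FLCNKO libraries and 12.86 and 13.03 in the WT libraries (0.85 ± 0.20, SE; limma adjusted p = 0.0987). They also include Mrps27 (24.2%), Mrps18b (30.5%), Mrpl10 (14.1%), Mrpl12 (13.1%) and Mrpl18 (10.1%). The 47 members with at most 10% on both measures had a median of 0.34.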

How the data were processed

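RNA was measured by sequencing in 4 libraries of mouse inguinal fat, 2 labelled FLCNKO and 2 WT, grouped by their titles. The authors deposited 1 log2 value per gene and library. Per the submitters' processing notes, STAR and limma were used on build mm9; no version, counting program, annotation or strand setting is given there. The deposited log2 values were not CPM, since 2 raised to them summed to about 81869664 in WT replicate 1, so library depth and counting error cannot be stated. Their common distribution hides any shift of most genes.

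Symbols came from GENCODE M21 by Ensembl identifier (85 identifiers had none). FLCNKO was set against WT by limma 3.58.1 (R 4.3.3) over all 13677 genes, with group as the only term, a mean-variance trend, 2 residual and 3.09 prior degrees of freedom, two-sided tests, Benjamini-Hochberg adjustment and no filter. The fit was tested on simulated data. List medians and counts carry no test. Named genes were the 5 largest and 3 smallest moderated statistics per subunit, the 2 highest and 2 lowest mean levels, 9 genes of special position, Flcn and up to 4 genes of smallest p per list; marker lists are given by their medians. The members and lists were chosen with earlier results of these data known. Exonic lengths, neighbours and shared 31-base stretches came from GENCODE M21 on GRCm38, another build than mm9. Mrpl33 and Mrpl53 are not analysed here. Alternatives were keeping genes whose mean reached 8, no filter, repeated quantile normalization, median centring, no trend, robust estimation, a replicate block, leaving out each library, and leaving out Mrps36 and the pseudogene. Figures used matplotlib 3.10.9.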

Additional observations from a re-analysis of the deposited data

How the results depend on the processing

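The direction of the members' median held under every alternative run, from 0.21 to 0.49, and limma called 0 members under each except the replicate block. Same-numbered libraries deviated together (r = 0.363 over genes), but 2 pairs sharing only a number do not establish pairing. With the replicate block 4 members (Mrps36, Mrpl34, Mrps27 and Mrpl47) were called higher and 0 lower, and 401 genes were called higher and 441 lower. Genes called lower were 138 with a mean of at least 8 and 143 with robust estimation, against 84, and called higher 187 and 201, against 134. Without the trend, 0 genes were called higher and 0 lower (1508 and 1194 at an unadjusted p under 0.05). Leaving out 1 library each gave 0 genes called in either direction (limma; 756 to 1733 higher and 639 to 1722 lower at an unadjusted p under 0.05), 8 to 54 members higher and 0 to 1 lower at an unadjusted p, 69 to 71 members with the FLCNKO libraries above and 0 to 3 with them below, a large-subunit median of 0.22 to 0.50 and a small-subunit one of 0.19 to 0.45. Groups are more easily apart with a library left out, so the counts above and below are not like those of the full design. FLCNKO replicate 1 alone lay above both WT libraries in 5380 of 13677 genes and FLCNKO replicate 2 alone in 6142. Both FLCNKO libraries did so in 3998. Such all-gene counts were not made without a WT library. The difference between subunit medians was 0.04 to 0.06 by symbol and 0.03 to 0.07 by structure. The cause of these moves was not tested, beyond the loss of a library. Among 23 named members, 10 alternative values changed sign, all when a single library was left out. Their ranges were -5.89 to 0.10 for Mrpl48-ps, -0.18 to 0.02 for Mrpl52, -0.13 to 0.13 for Mrps12, -0.31 to 0.41 for Mrpl23, -0.05 to 0.54 for Mrps18c, -0.0035 to 0.35 for Mrps30, -0.03 to 0.38 for Mrps31 and -0.03 to 0.19 for Mrps26. Chchd1 ranged from -0.03 to 0.56, and Flcn from -0.17 to 0.06, with 0.02 without WT replicate 1. Unknown depth limits the low members, above all Mrpl23 and Mrpl48-ps.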
